A study of Mus musculus with 24 samples.

Results

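The genes of 8 secreted milk proteins, Wap, Lalba, Glycam1, Ltf, Trf, Wfdc18, Folr1 and Cel, were followed in RNA from 24 mammary glands of aged transgenic mice. They were the rows of the expression table, 8 of 55487 genes, whose symbol was one of these names. All 8 had at least 1 TPM in at least 3 libraries and were tested. TPM is transcripts per 1000000, the share of a library's RNA that a gene takes per unit of its length. Each mouse carried rtTA under the MMTV promoter, which is most active in mammary epithelium, together with a tet-operator transgene labelled CYP19A1, which encodes aromatase, or Esr1, which encodes oestrogen receptor alpha. Each line formed 4 groups of 3 mice. At 20 months of age and 8 months of induction there were mice with a subcutaneous tamoxifen pellet (25 mg released over 60 days), mice with a letrozole pellet (2.5 mg over 60 days), and mice with neither drug, called untreated here. Descriptions of the untreated samples carry the tag PLA, which the labels do not explain. At 18 months and 6 months of induction there were mice with neither drug. Their descriptions carry the tag 6MDoxy, in which Doxy is read here as doxycycline. Drug exposure covered the last 2 months. All the mice were induced carriers, and none without a transgene were among the samples. Tamoxifen modulates the oestrogen receptor, and letrozole blocks aromatase.

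Caseins form the micelles of milk, and the proteins that stay in solution are the whey proteins. In the mouse, prolactin acting through Stat5 and the ETS factor Elf5 drives alveolar luminal cells to make both in pregnancy and lactation, and a gland at rest keeps some of this transcription. Wap is whey acidic protein, the rodent whey protein built of 2 WAP domains. Wfdc18 is a small secreted WAP-domain protein. Lalba is alpha-lactalbumin, which turns a galactosyltransferase into lactose synthase. Glycam1 is a mucin-like glycoprotein found in milk, also known as a ligand of L-selectin on lymph node vessels. Ltf and Trf are lactoferrin and transferrin, iron-binding proteins, of which lactoferrin is also an antimicrobial protein of neutrophil granules and an oestrogen-responsive gene of the mouse uterus. Folr1 is a folate receptor, and Cel is the bile salt-stimulated lipase made by the pancreas and, in several species, the lactating gland.

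In the GRCm38 assembly, which the files' build mm10 corresponds to, Wap lies on chromosome 11, 6635483 to 6638654, Wfdc18 on chromosome 11, 83709004 to 83711360, Lalba on chromosome 15, 98480400 to 98482934, Glycam1 on chromosome 15, 103562759 to 103565081, Ltf on chromosome 9, 111019292 to 111042766, Trf on chromosome 9, 103208876 to 103230286, Folr1 on chromosome 7, 101858331 to 101870788 and Cel on chromosome 2, 28555819 to 28563403. All are protein-coding genes, and each value is for the whole gene. Promoter windows of RefSeq (GRCm38.p6) were matched for 6 of the 8, all but Trf and Folr1. The stretches from 250 to 11 bases before the start are shown for Glycam1, Wap and Lalba, the members with the largest differences under letrozole described below, and for Ltf, which did not pass.
Glycam1: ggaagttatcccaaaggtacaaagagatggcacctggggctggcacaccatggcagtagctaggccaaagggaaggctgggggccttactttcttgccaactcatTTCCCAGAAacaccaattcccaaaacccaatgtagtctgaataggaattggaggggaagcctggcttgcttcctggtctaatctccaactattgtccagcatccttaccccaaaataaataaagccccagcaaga
Wap: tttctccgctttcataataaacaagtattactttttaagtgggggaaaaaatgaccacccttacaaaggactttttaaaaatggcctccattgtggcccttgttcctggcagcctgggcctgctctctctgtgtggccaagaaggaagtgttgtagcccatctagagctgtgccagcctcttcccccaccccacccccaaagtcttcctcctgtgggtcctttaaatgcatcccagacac
Lalba: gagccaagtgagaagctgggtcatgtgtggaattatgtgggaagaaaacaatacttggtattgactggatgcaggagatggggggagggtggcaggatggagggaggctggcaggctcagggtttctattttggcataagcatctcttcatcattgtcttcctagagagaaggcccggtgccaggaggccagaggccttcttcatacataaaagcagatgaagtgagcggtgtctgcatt
Ltf: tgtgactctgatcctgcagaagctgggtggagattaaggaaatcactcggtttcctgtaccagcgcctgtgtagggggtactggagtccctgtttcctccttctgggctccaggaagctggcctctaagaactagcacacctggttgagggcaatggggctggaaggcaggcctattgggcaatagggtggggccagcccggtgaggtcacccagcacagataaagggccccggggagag
These are chr15:103565092-103565331, chr11:6638660-6638899 and chr15:98482694-98482933 on the minus strand and chr9:111019042-111019281 on the plus strand. Capitals mark TTCNNNGAA, the palindromic Stat motif, which reads the same on both strands. It occurred in 1 of the 6 member windows, as TTCCCAGAA 145 to 137 bases before the start of Glycam1. Of 3 casein genes with a window, Csn2 held TTCTTGGAA and Csn1s1 held TTCTTAGAA. The motif occurs in 7.02% of 32851 promoter windows of 250 bases. The oestrogen response element GGTCANNNTGACC (0.0639% of windows) and the NFI palindrome TGGCANNNTGCCA (0.0335%) had no match in the 6. At such shares 6 windows would seldom hold a match. Only perfect palindromes within 250 bases were searched, so nothing follows about imperfect or more distant elements.

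Milk protein RNA was still present in these glands, and its amount differed widely between mice. The 8 genes together took 0.0533% to 0.920% of the TPM of a library, and the 5 caseins 0.00742% to 3.82%. Trf was the most abundant of the 8 by median, at 856 TPM, and ranged from 346 to 3447 TPM. Ltf followed with a median of 223 TPM (range 105 to 687 TPM). Glycam1 covered the widest range, 0.210 to 3458 TPM. Wap was listed at 0 in 1 library and reached 736 TPM in Esr1 untreated replicate 2. The lowest and highest libraries of a member were of different groups, and most groups overlapped with their neighbours in the order of mean levels. Among 7 neighbouring pairs per gene, Lalba and Cel had 2 without overlap, Wap had 1, and the other 5 genes had 0.

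**Figure D1:**
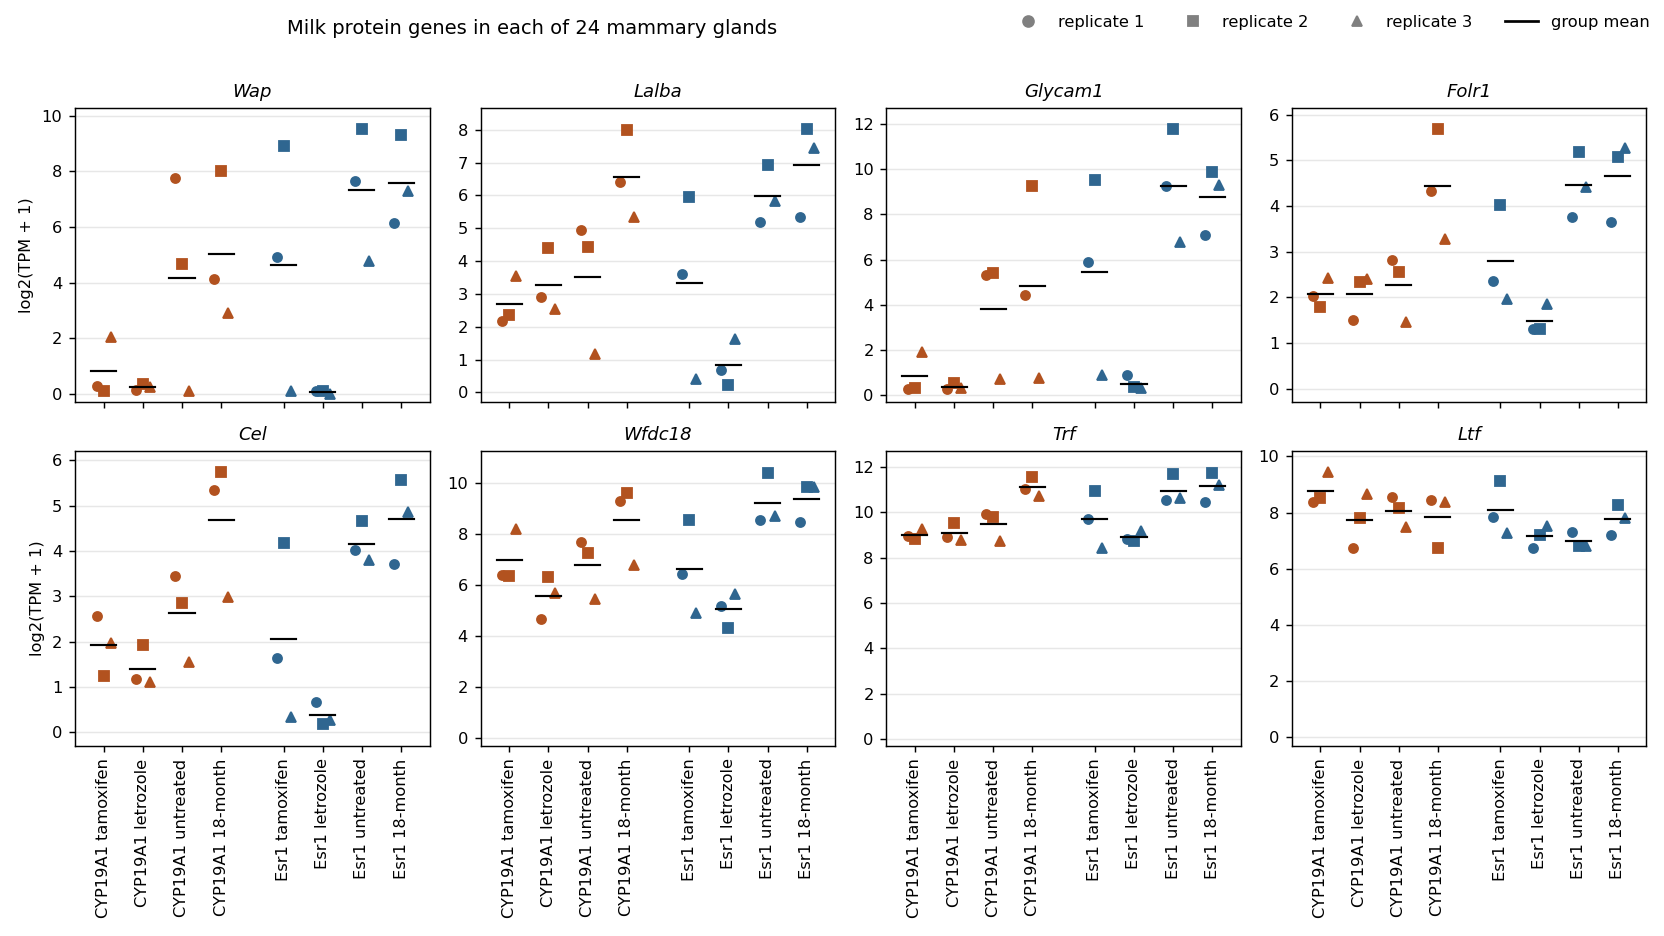
Level of each gene, log2(TPM + 1), in every library of the 8 groups (3 mice each), CYP19A1 groups on the left and Esr1 groups on the right of each panel; symbols mark replicate numbers and lines group means. In the Esr1 line all members but Ltf are low in the 3 letrozole glands, and tamoxifen replicate 2 is the highest of its group for all 8.

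The libraries were whole glands and differed in the tissue they held. The 10 luminal epithelial markers, among them Krt8, Krt18 and Epcam, summed to 64.1 TPM at the lowest, in the CYP19A1 letrozole group, and to 723 TPM at the highest, in the Esr1 18-month group, and each of these 3 markers was above 10 TPM in every library. The 10 skeletal muscle markers summed to 21.5 TPM at the lowest and to 28381 TPM at the highest. Gene models of ribosomal RNA made up 31.3% of all TPM in Esr1 untreated replicate 2, and 3.84% in its group mate replicate 3. In replicate 2 of the Esr1 tamoxifen group they made up 3.54%, where the median library had 0.188%. Gene models named Rn7s made up 24.3% to 45.0% of the TPM of a library, and mitochondrial genes 9.82% to 27.9%. In whole tissue, fewer cells of a type and less RNA per cell cannot be told apart. The transgenes could not be checked by level, since no source used here says whether the Esr1 gene model counts transgene reads, and the human CYP19A1 transgene was not analysed here. Esr1 averaged 15.1 TPM in the CYP19A1 line and 14.5 TPM in the Esr1 line, and mouse Cyp19a1 averaged 0.044 TPM in the CYP19A1 line and 0.022 TPM in the Esr1 line, too low to be tested.

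Letrozole in the Esr1 line gave the most calls among the 8 of the 16 comparisons. Of the 8 genes 7 fell and 0 rose (limma on log2(TPM + 1), Benjamini-Hochberg adjusted p under 0.05 over 19325 genes), against 8.65% of all genes that passed in either direction and 5.81% that fell. Their values in the letrozole and untreated groups did not overlap for those 7, as for 16.5% of all genes in the lower direction. The median difference of the 8 was -3.98 log2 units, and that of all genes tested was -0.0056.

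Among the members, Glycam1, Wap, Lalba and Wfdc18 had the largest falls in log2(TPM + 1). Glycam1 stood at 0.86, 0.28 and 0.25 TPM in Esr1 letrozole glands, against 603, 3458 and 107 TPM in Esr1 untreated glands. Its log2 difference was -8.73 ± 1.98 (SE, adjusted p = 0.014). Wap, the whey acidic protein, was at 0.08, 0.08 and 0 TPM with letrozole, where replicate 3 was listed at 0, against 203, 736 and 26.3 TPM untreated, a difference of -7.25 ± 1.94 (adjusted p = 0.028). In both genes every letrozole gland was below 1 TPM and the untreated glands differed among themselves by over 10 times. Lalba, the lactose synthase subunit, was at 0.59, 0.18 and 2.09 TPM with letrozole against 35.4, 119.9 and 55.6 TPM untreated (-5.13 ± 1.17, adjusted p = 0.014). Wfdc18 was at 35.6, 19.1 and 50.1 TPM against 381, 1379 and 419 TPM (-4.17 ± 0.91, adjusted p = 0.011). Lalba was at 2.09 TPM or less with letrozole, while Wfdc18 kept 19.1 TPM or more.

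Cel, Folr1 and Trf fell by less in log2(TPM + 1), a scale that understates changes of low genes. All 3 letrozole values of Cel were below 1 TPM. Over the alternatives its difference reached -5.52, against -4.51 for Wfdc18. Cel, the lipase, was at 0.59, 0.14 and 0.21 TPM in Esr1 letrozole glands against 15.2, 24.5 and 12.9 TPM in untreated glands (-3.79 ± 0.81, adjusted p = 0.010). Folr1, the folate receptor, was at 1.46, 1.47 and 2.62 TPM against 12.6, 35.1 and 20.4 TPM (-2.97 ± 0.60, adjusted p = 0.0087). Trf, transferrin, was at 451, 428 and 569.7 TPM against 1476, 3339 and 1584 TPM (-2.05 ± 0.49, adjusted p = 0.016). Trf stayed abundant with letrozole, and its 3 letrozole glands were close to each other. Ltf, lactoferrin, was at 106, 145 and 184 TPM with letrozole and 159, 111 and 112 TPM untreated, groups that overlapped, with a difference of 0.17 ± 0.53 (adjusted p = 0.88).

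How many of the 7 passed depended on single libraries. Without Esr1 untreated replicate 2, the library with most ribosomal RNA and with the highest level of 7 of the 8 genes in its group, 2 passed, Folr1 and Cel. Without letrozole replicate 1 there were 4 (Glycam1, Wfdc18, Folr1 and Cel), and without letrozole replicate 2 there was 1, Folr1. With 1 library left out the log2 differences ran from -9.97 to -7.47 for Glycam1, -8.53 to -6.15 for Wap and -3.31 to -2.60 for Folr1.

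**Figure D2:**
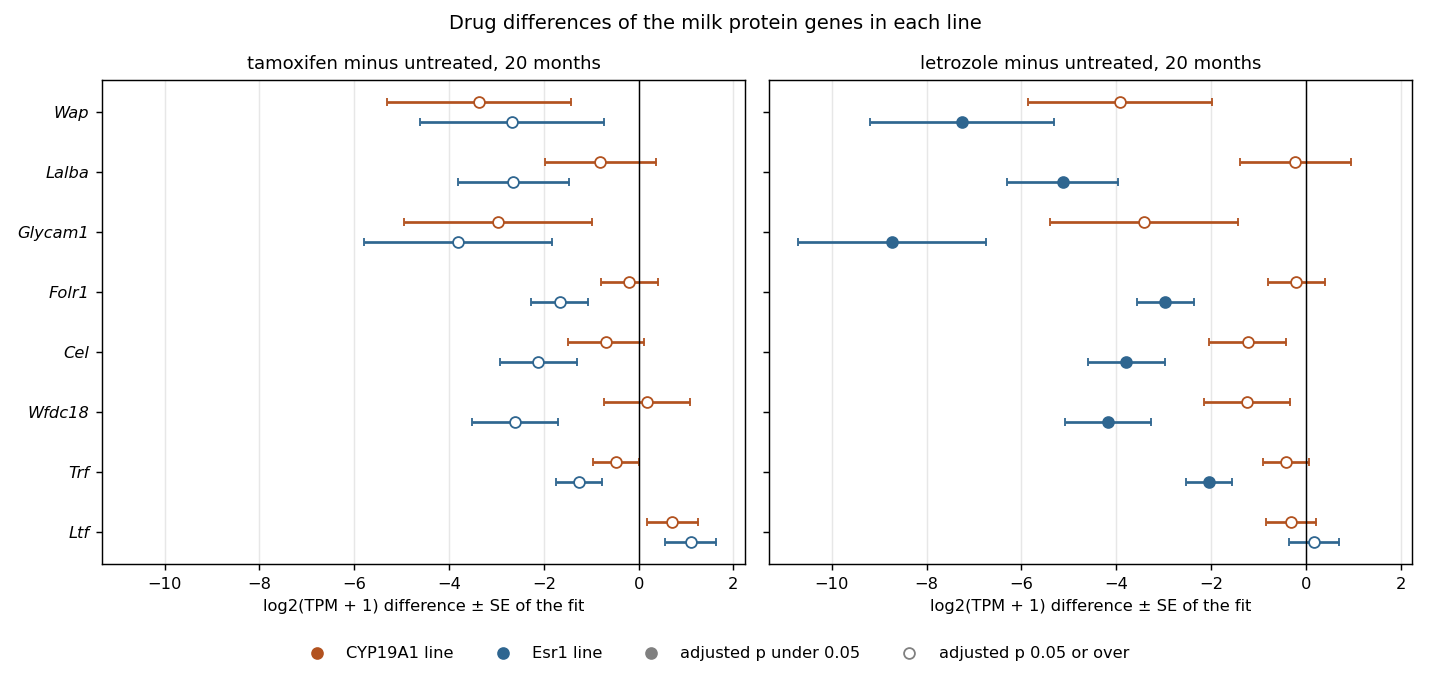
Difference in log2(TPM + 1) between drug and untreated glands at 20 months, with the standard error of the fit, for tamoxifen (left) and letrozole (right); brown points are the CYP19A1 line, blue points the Esr1 line, and filled points passed at adjusted p under 0.05. The 7 filled points are all in the Esr1 line under letrozole; Ltf lies near 0 there.

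Epithelial markers fell alongside. Of the 10 luminal markers 7 fell and 0 rose in Esr1 letrozole glands, with a median of -1.64, among them the tight junction gene Cldn3 (-2.26 ± 0.43), the E-cadherin gene Cdh1 (-1.89 ± 0.39), the claudin Cldn7 (-2.07 ± 0.47) and the keratin Krt8 (-1.77 ± 0.41). The sum of the 10 was 126 to 188 TPM with letrozole, against 439.9 to 549.9 TPM untreated. Of 8 basal markers 0 passed, with a median of -0.46. The 10 muscle markers summed to 23738 to 26669 TPM with letrozole and 5217 to 17109 TPM untreated, each marker higher on average and none past the threshold in limma. With the muscle score as a covariate the same 7 of the 8 fell. When the luminal score (the mean log2 level of its 10 genes) was subtracted from every gene, an alternative chosen after seeing the data, the difference left was -7.22 for Glycam1, -5.74 for Wap, -3.62 for Lalba, -2.67 for Wfdc18, -2.28 for Cel, -1.46 for Folr1 and -0.54 for Trf. The first 6 of these passed and Trf did not (adjusted p = 0.27), while Ltf was higher by 1.68. On that scale the median of all genes was 1.50, and 17570 of 19325 genes passed. With the luminal score as a covariate of the fit, 0 of the 8 and 0 of all genes passed.

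Other genes of milk making moved in the same glands, by lists compiled with earlier results of these data known. Of the 5 caseins 4 fell, Csn1s2a (-9.76 ± 2.07), Csn2 (-9.52 ± 2.12), Csn1s1 (-5.78 ± 1.09) and Csn3 (-3.12 ± 0.74), while Csn1s2b, listed at 0 in all 3 letrozole glands, did not pass. Of 8 tested genes of the prolactin and Stat5 pathway 3 fell and 0 rose, namely Elf5 (-2.93 ± 0.59, adjusted p = 0.0079), Cish, a Stat5 target (-1.72 ± 0.36), and Stat5a (-1.51 ± 0.31). Prlr, the prolactin receptor, was at 14.8 TPM on average with letrozole and 27.3 TPM untreated, a difference that did not pass (adjusted p = 0.17). Of 13 tested genes of the milk fat globule and other milk components 5 fell and 0 rose, including the mucin Muc15 (-4.09 ± 0.74), the lipid droplet coat Plin2 (-1.57 ± 0.29), the globule mucin Muc1 (-2.26 ± 0.51) and Pigr, the immunoglobulin transporter (-4.45 ± 0.96).

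The partners of single members behaved less uniformly. Of 8 genes of lactose synthesis, B4galt1, the galactosyltransferase that Lalba binds, fell (-1.49 ± 0.43, adjusted p = 0.038), while the sugar nucleotide genes Ugp2 (0.96 ± 0.24) and Pgm1 (1.07 ± 0.28) and the hexokinase Hk2 (1.00 ± 0.31) rose, 3 higher and 1 lower in all. Ugp2, Pgm1 and Hk2 are also active in muscle, and the muscle sums of these groups are given above; their part in these 3 differences was not tested. Of 7 tested genes of the WAP domain family other than Wap and Wfdc18, 0 passed and the median was 0.12. Of 9 tested genes of iron handling other than Ltf and Trf, 1 fell, Meltf, melanotransferrin (-0.83 ± 0.22). Of 3 tested genes of folate uptake other than Folr1, 1 fell, Slc46a1, the proton-coupled folate transporter (-1.08 ± 0.18).

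**Figure D3:**
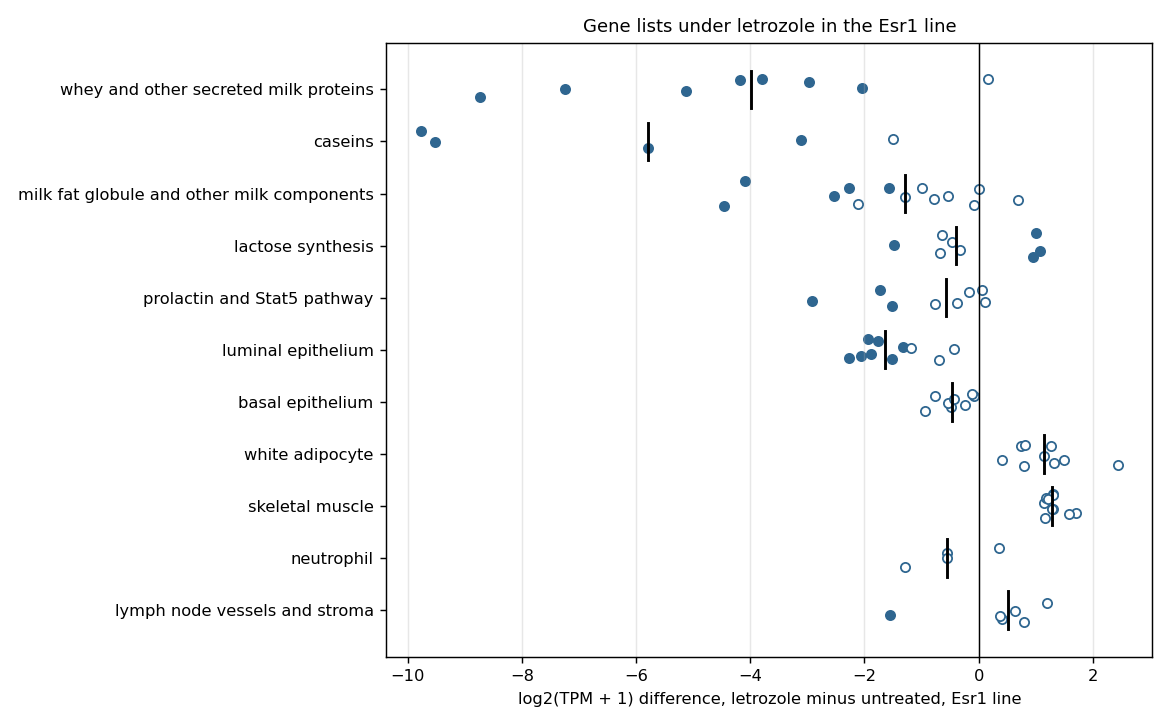
Difference in log2(TPM + 1) between letrozole and untreated glands of the Esr1 line for each tested gene of 11 lists; filled points passed at adjusted p under 0.05 and bars mark list medians. The milk proteins have a median of -3.98 and the luminal markers one of -1.64, and the points of the muscle list lie above 0, none of them filled.

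Tamoxifen in the Esr1 line gave no call among the 8, against 1.55% of all genes (299, with 3556 at unadjusted p under 0.05). Their median difference was -2.36, and 5 had an unadjusted p under 0.05. The 3 tamoxifen glands were unlike each other, with replicate 2 the highest for all 8 genes. Glycam1 was at 58.2, 727 and 0.88 TPM with tamoxifen, against 603, 3458 and 107 TPM untreated, and Wap at 29.4, 486 and 0.07 TPM against 203, 736 and 26.3 TPM. Replicate 3 was below 1 TPM for both, where replicate 2 was within the untreated range. Wfdc18 alone did not overlap between the groups (all genes 6.98% in the lower direction), at 86.1, 380.48 and 29.0 TPM against 380.6, 1379 and 419 TPM (-2.60 ± 0.91, adjusted p = 0.14). Its nearest values, 380.48 and 380.6 TPM, were almost equal. The luminal sum was 243 to 566 TPM with tamoxifen, against 439.9 to 549.9 TPM untreated. With the luminal score as a covariate 0 of the 8 passed. Without tamoxifen replicate 2, which also held 3.54% ribosomal RNA, Trf, Wfdc18 and Cel passed as lower.

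Set against letrozole in the same line, tamoxifen gave no call among the 8 (25 genes of all, 0.129%, and 1475 at unadjusted p under 0.05). Glycam1 and Folr1 were higher with tamoxifen without overlap, as 11.8% of all genes were. Folr1 was at 4.16, 15.3 and 2.93 TPM with tamoxifen against 1.46, 1.47 and 2.62 TPM with letrozole (adjusted p = 0.64). Glycam1 was at 58.2, 727 and 0.88 TPM with tamoxifen against 0.86, 0.28 and 0.25 TPM with letrozole (4.91 ± 1.98, adjusted p = 0.55). Its nearest values, 0.88 and 0.86 TPM, were almost equal and both below 1 TPM.

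In the CYP19A1 line neither drug gave a call among the 8. With tamoxifen 0.160% of all genes passed (31, and 846 at unadjusted p under 0.05), and with letrozole 0.0207% (4, and 733 unadjusted). The untreated CYP19A1 glands already spread widely. Wap was at 0.11, 0.29 and 0.20 TPM with letrozole and 0.21, 0.08 and 3.18 TPM with tamoxifen, against 219, 24.2 and 0.08 TPM untreated. Glycam1 was at 0.23, 0.45 and 0.27 TPM with letrozole, lower without overlap (as 8.51% of all genes), and 0.21, 0.25 and 2.81 TPM with tamoxifen, against 38.6, 41.4 and 0.64 TPM untreated. For both genes untreated replicate 3 was below 1 TPM. Glycam1 differed by -3.42 ± 1.98 with letrozole (adjusted p = 1.0).

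Lalba, Folr1 and Trf overlapped between CYP19A1 letrozole and untreated glands. Lalba was at 6.51, 20.0 and 4.87 TPM with letrozole against 29.8, 20.5 and 1.24 TPM untreated (-0.23 ± 1.17). Folr1 was at 1.85, 4.05 and 4.29 TPM against 6.05, 4.89 and 1.76 TPM (-0.20 ± 0.60), and Trf at 474, 733 and 444 TPM against 964, 881 and 426 TPM (-0.41 ± 0.49). None of the 3 passed. Between tamoxifen and letrozole 0 of the 8 passed (48 genes of all, 0.248%, and 1950 unadjusted). Wfdc18 was higher without overlap, at 83.4, 82.1 and 295 TPM with tamoxifen against 24.9, 78.9 and 51.5 TPM with letrozole (1.42 ± 0.91, adjusted p = 0.59), where 21.7% of all genes were.

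Whether the lines differed in their response to a drug was tested as the CYP19A1 difference minus the Esr1 difference. For letrozole 0 of the 8 passed, as 0 of all genes did (0%, and 2277 at unadjusted p under 0.05 in limma). The estimate was positive for 7 of the 8, with Folr1 at 2.77 ± 0.85 (adjusted p = 0.31), Lalba at 4.90 ± 1.66 (adjusted p = 0.33) and Glycam1 at 5.31 ± 2.80 (adjusted p = 0.46), and was -0.49 ± 0.76 for Ltf. For tamoxifen 0 of the 8 and 0 of all genes passed (0%, and 2021 unadjusted), with Wfdc18 at 2.78 ± 1.28 (adjusted p = 0.46). So the calls under letrozole in the Esr1 line were not shown to differ from the CYP19A1 line.

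Between the lines, Folr1 fell in CYP19A1 untreated glands at 20 months, at 6.05, 4.89 and 1.76 TPM, against 12.6, 35.1 and 20.4 TPM in Esr1 glands (-2.17 ± 0.60, adjusted p = 0.044), the 1 call among the 8, where 5.27% of all genes passed and 3.16% fell. Without overlap 6 of the 8 were lower and 1 was higher in CYP19A1 glands (as 13.0% and 8.55% of all genes were). Trf, lower without overlap, was at 964, 881 and 426 TPM in CYP19A1 against 1476, 3339 and 1584 TPM in Esr1 glands (-1.48 ± 0.49, adjusted p = 0.082). The 1 higher was Ltf, at 369.9, 282 and 176 TPM against 159, 111 and 112 TPM (1.07 ± 0.53, adjusted p = 0.25), and Wap overlapped. Elf5 (-2.22 ± 0.59) and Stat5a (-1.12 ± 0.31), called genes of the prolactin and Stat5 list, and Csn1s1 (-4.09 ± 1.09) fell in the same comparison. The other caseins did not pass. Csn2, Csn1s2a and Csn3 were lower (adjusted p = 0.058 to 0.061). Csn1s2b went the other way, averaging 22.7 TPM in CYP19A1 against 2.02 TPM in Esr1 glands. Of 10 luminal markers 0 passed (median -0.38). The luminal sum was 319 to 453 TPM in CYP19A1 and 439.9 to 549.9 TPM in Esr1 glands. The Folr1 call was lost without Esr1 replicate 2 or 3 or without any of the 3 CYP19A1 replicates, and with the replicate number as a block Trf passed as well.

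At 18 months 0 of the 8 passed between the lines (1.36% of all genes, 262, and 1619 unadjusted), and all 8 overlapped. Wap was at 16.7, 257 and 6.47 TPM in CYP19A1 glands against 69.7, 629 and 158 TPM in Esr1 glands, and Glycam1 at 20.7, 606 and 0.73 TPM against 136, 921 and 628 TPM. With tamoxifen 0 of the 8 passed (1.01%, 195, and 1519 unadjusted). With letrozole 0 passed (0.906%, 175, and 1489 unadjusted), but Wap, Lalba and Cel were higher in CYP19A1 glands without overlap (3.95% of all genes). Lalba was at 6.51, 20.0 and 4.87 TPM in CYP19A1 against 0.59, 0.18 and 2.09 TPM in Esr1 letrozole glands (2.44 ± 1.17, adjusted p = 0.65), and Cel at 1.25, 2.77 and 1.14 TPM against 0.59, 0.14 and 0.21 TPM (1.02 ± 0.81, adjusted p = 0.94). The Wap values there were at most 0.29 TPM. Averaged over the 4 conditions, Glycam1 was lower in CYP19A1 glands (-3.52 ± 0.99, adjusted p = 0.035), the 1 call among the 8, where 7.27% of all genes passed and 3.31% fell. That call held without any 1 of Esr1 18-month replicate 1, Esr1 untreated replicate 3, Esr1 tamoxifen replicate 3, CYP19A1 18-month replicate 2, CYP19A1 untreated replicates 1 and 2 and CYP19A1 tamoxifen replicate 3. It was lost without any 1 of the other 17 libraries (adjusted p up to 0.075). The difference ran from -4.09 to -3.01 over the 24 repeats.

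With age, Trf and Folr1 fell in the CYP19A1 line, 2 of the 8, where 9.45% of all genes passed in either direction and 6.45% fell. Trf was at 964, 881 and 426 TPM at 20 months, against 2104, 3016 and 1669.8 TPM at 18 months (-1.62 ± 0.49, adjusted p = 0.043). Folr1 was at 6.05, 4.89 and 1.76 TPM against 19.2, 50.9 and 8.67 TPM (-2.16 ± 0.60, adjusted p = 0.035). Lalba was also lower without overlap, as were Trf and Folr1 and 33.8% of all genes, at 29.8, 20.5 and 1.24 TPM against 83.5, 253 and 39.5 TPM (-3.07 ± 1.17, adjusted p = 0.096), and the other 5 overlapped. The ages differ in induction time as well. All genes tested had a median of -0.23 with age here, which became -0.020 when libraries were scaled by median ratios, and then 0 of the 8 passed. The muscle sum was 16695 to 28381 TPM at 20 months and 21.5 to 6105 TPM at 18 months. With the muscle score as a covariate Lalba, Trf, Folr1 and Cel passed. The 9.45% of all genes given above belongs to the fit without that score. Both calls were lost without 18-month replicate 1 or 2 or 20-month replicate 2 or 3, and Trf also without 20-month replicate 1. In the Esr1 line 0 of the 8 passed with age (0.00517% of all genes, 1, and 1214 unadjusted), with Trf at 1476, 3339 and 1584 TPM at 20 months and 1398, 3447 and 2384 TPM at 18 months. The difference between the lines in the effect of age gave 0 calls among the 8 (0.00517% of all genes, 1, and 1652 unadjusted), with Trf at -1.44 ± 0.69 (adjusted p = 0.58) and Folr1 at -1.95 ± 0.85 (adjusted p = 0.56).

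Over the 24 libraries 7 of the 8 genes went together and Ltf stood apart. Between any 2 of the 7, Pearson's r was 0.83 to 0.97 (21 pairs), and Ltf had r from -0.11 to 0.12 with them. These values are a description, since all pairs share libraries. Against the casein score, the mean log2 level of the 5 caseins, the 7 had r from 0.91 to 0.96 and Spearman's rho from 0.88 to 0.95. Each had permutation p = 1.0e-05, the smallest that 100000 resamples can give, and adjusted p = 4.0e-05 over 48 relations. Without the 2 libraries farthest from the median score r was 0.89 to 0.95. As deviations from the 8 group means, so that group differences play no part, r was 0.84 to 0.95. Ltf had r = -0.00012 and rho = 0.0026 with the casein score (adjusted permutation p = 1.00 and 0.99), and r = 0.43 as deviations (adjusted permutation p = 0.055).

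**Figure D4:**
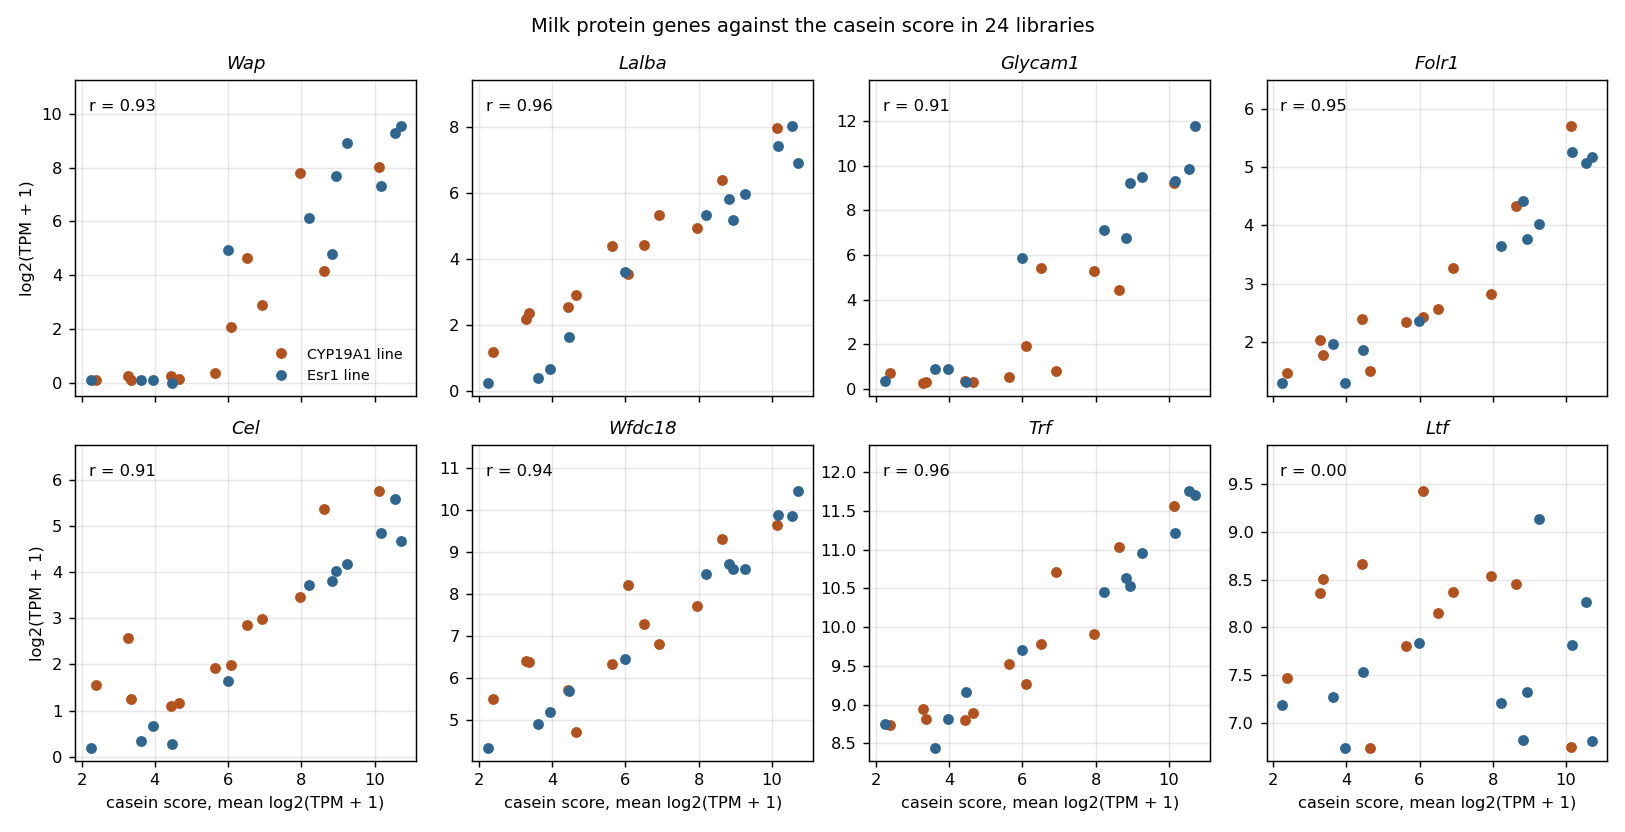
Level of each gene, log2(TPM + 1), against the casein score of the same library (mean log2(TPM + 1) of 5 caseins) in 24 libraries, brown for the CYP19A1 line and blue for the Esr1 line, with Pearson's r. The points of 7 genes rise along the casein score, and those of Ltf do not.

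Against the luminal score the 7 had r from 0.72 to 0.86 and rho from 0.78 to 0.93 (adjusted permutation p = 2.4e-04 at most for r). The values without the 2 farthest libraries were 0.75 to 0.89, and as deviations r was 0.44 to 0.72. Ltf had r = 0.37 and rho = 0.31 with the luminal score (adjusted permutation p = 0.12 and 0.19), and r = 0.72 as deviations (adjusted permutation p = 4.8e-04). Against the muscle score the 7 had r from -0.46 to -0.17 and rho from -0.85 to -0.60. Without the 2 farthest libraries, CYP19A1 18-month replicate 3 and Esr1 18-month replicate 1, r was -0.83 to -0.62. As deviations r was 0.23 to 0.51 and rho -0.13 to 0.12, and r without the 2 farthest libraries was -0.03 to 0.17, so the positive values rest on those. By adjusted permutation p for r over libraries, 1 of the 8 passed with the muscle score, 4 with the white adipocyte score, 8 with the neutrophil score and 0 with the lymph node score. For rho over libraries the 7 passed with the muscle score (adjusted permutation p = 0.0046 at most). As deviations, by r, 2 passed with the muscle score, 4 with the white adipocyte score, 6 with the neutrophil score and 1, Ltf, with the lymph node score. The deviations were permuted freely over the 24 libraries. Centring on 8 group means leaves fewer free values, so p-values of deviations are too small and these counts may be too high.

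The genes most like each member, by Pearson's r of log2(TPM + 1) over the 24 libraries among 14009 candidates, are given as a description. Folr1 was most like Elf5, the alveolar ETS factor, with r = 0.98, followed by Bspry (0.98) and Slc2a9 (0.98). Wap was most like Glycam1 (0.97), Igfbp2 (0.91) and Wfdc3 (0.91). Glycam1 was most like Wap (0.97), Muc4 (0.92) and Pigr (0.92). Lalba was most like Csn1s1 (0.96), Trf (0.96) and Csn1s2a (0.95). The genes nearest Trf were Folr1 (0.96), Lalba (0.96) and Csn1s1 (0.95). Wfdc18 was most like Ctsh (0.97), Galnt3 (0.97) and Trps1 (0.96). Those nearest Cel were Cdc42se1 (0.96), Ralgds (0.95) and Tmem183a (0.95). Ltf was most like Wnt7b, a Wnt ligand (0.92), then Cyp2d10 (0.82) and Mylip (0.80), none of them another member. Each is the highest of many values.

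Ltf was highest with tamoxifen in the CYP19A1 line. It stood at 328, 363 and 687 TPM there, against 369.9, 282 and 176 TPM in CYP19A1 untreated glands, groups that overlapped (0.71 ± 0.53, adjusted p = 1.0). In the Esr1 line it was at 227, 561 and 153 TPM with tamoxifen against 159, 111 and 112 TPM untreated (1.10 ± 0.53, adjusted p = 0.28). Neither passed, and it passed in 0 of the 16 comparisons. Its group means of log2(TPM + 1) spanned 1.78 units, and those of Glycam1 spanned 8.86.

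Other tissues that make these proteins were looked for by their markers. For neutrophils, a source of lactoferrin, 7 of 12 markers (Mpo, Elane, Camp, Ngp, Mmp8, Cxcr2 and Ly6g) were below 1 TPM in all 24 libraries and Retnlg reached it in 1. The other 4 were higher, with Mmp9 at 1.23 to 11.1 TPM, S100a8 at 1 TPM or more in 22 libraries (up to 10.6 TPM) and S100a9 in 17 (up to 11.6 TPM). Lcn2, also made by epithelium, was at 42.2 to 485 TPM, where the sum of the 12 was 50.1 to 501 TPM. All 8 milk genes passed with the neutrophil score by r over libraries. Ltf had r = 0.45 and rho = 0.42 (adjusted permutation p = 0.045 and 0.064), and r = 0.24 without the 2 farthest libraries, so over libraries its relation rests on those. The other 7 had r from 0.50 to 0.64 and, without the 2 farthest libraries, 0.48 to 0.60. As deviations Ltf had r = 0.66 and rho = 0.64 (adjusted permutation p = 8.3e-04 and 0.0036), and r = 0.65 without the 2 farthest libraries. The other 7 had r from 0.43 to 0.56 as deviations, and 0.19 to 0.51 without the 2 farthest. The part of neutrophils in the level of Ltf was not tested.

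For lymph node vessels and stroma, where vessels are a source of Glycam1, the 8 markers fell on both sides of 1 TPM. Chst4 was listed at 0 in 15 of 24 libraries (at most 0.05 TPM) and Fut7 was at most 0.46 TPM, while Glycam1 reached 3458 TPM. Enpp2 was at 14.5 to 62.5 TPM and Ccl19 at 1 TPM or more in all 24 libraries (up to 4.86 TPM). Cxcl13 was at 1 TPM or more in 21 libraries (up to 35.7 TPM), Ccl21a in 19 (up to 16.3 TPM), Madcam1 in 10 (up to 7.87 TPM) and Cr2 in 4 (up to 1.38 TPM). Against the lymph node score Glycam1 had r = 0.03 over libraries and 0.09 as deviations (adjusted permutation p = 0.96 and 0.69). Ltf had r = 0.21 over libraries (adjusted permutation p = 0.42). As deviations Ltf had r = 0.68 and rho = 0.68 with that score (adjusted permutation p = 0.0011 and 0.0015), and r = 0.59 without the 2 farthest libraries. Madcam1, on the same list, fell with letrozole in the Esr1 line (-1.56 ± 0.36). The sum of the 8 lymph node markers was 67.9 to 92.1 TPM in Esr1 letrozole glands against 23.6 to 83.4 TPM untreated.

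For the pancreas, a source of Cel, 9 of 10 markers were at most 0.43 TPM, of which Prss1, Prss2 and Pnlip were listed at 0 in 20 of 24 libraries each and Try4 in 23. Cela1, the tenth, was at 1.55 to 23.9 TPM. For the liver, a source of Trf, none of 6 markers was above 6.85 TPM (Serpina1a), with Alb at most 5.02 TPM and Ttr at most 0.23 TPM, against at least 346 TPM of Trf. Of 8 salivary gland markers, which share Ltf and other secreted proteins, Smr3a and Dcpp1 were listed at 0 in 22 libraries each, the other markers but Amy1 were at most 3.60 TPM, and Amy1, which other tissues also make, was at 16.4 to 116 TPM.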

How the data were processed

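Total RNA of 24 mammary glands was freed of ribosomal RNA, primed at random and sequenced with strand kept, per the labels' protocols. The deposited values are TPM per gene for each library, made by the authors. Per the submitters' processing notes the tools included RSEM 1.3.1 and STAR 2.7.9a, with Trim Galore 0.6.5 and FastQC 0.11.9, on build mm10. No source used here gives the gene annotation. TPM keeps no read depth, so no counting interval can be given, and a value is a share that very abundant RNAs shift. Each column matched 1 sample by its label.

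Values were tested as log2(TPM + 1), a scale that understates changes of low genes, with limma 3.58.1 in R 4.3.3 (trend and robust settings). All 8 groups of 3 entered 1 fit over the 19325 of 55487 genes that reached 1 TPM in 3 or more libraries, for 16 comparisons, with Benjamini-Hochberg adjustment over all genes and calls at adjusted p under 0.05. Errors are standard errors of the fit. Comparisons that share untreated libraries are not independent. The procedure was tried on simulated data with changes placed only in genes of below-median spread. That trial does not cover genes that vary as widely as Glycam1 or Wap. Relations used two-sided permutation tests (100000 resamples) adjusted over 48 relations. Deviations from group means were permuted freely over libraries, which makes their p-values too small. The labels call samples biological replicates. Same replicate numbers did not pair the samples, as the closing limits state. Figures used Python 3.11.15 and matplotlib 3.10.9.

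Members, marker lists and tests were chosen with earlier results of these data known. The text names all 8 members, the caseins, up to 4 called members of another list by smallest p, the 3 genes most like each member (no predicted genes, pseudogenes or receptor segments), and Esr1 and Cyp19a1; other list genes, such as Prlr, B4galt1, Slc46a1 and markers of other tissues, are named after their values were seen. Alternatives were a pseudocount of 0.1, no filter, median-ratio scaling, rescaling without mitochondrial, ribosomal, Rn7s and muscle genes, only the compared groups, the replicate block, tissue scores as covariates, and each replicate left out.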

Additional observations from a re-analysis of the deposited data

How the results depend on the processing

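The 7 calls under letrozole in the Esr1 line numbered 1 to 7 with 1 library left out, 6 without the filter, 0 with the luminal score as a covariate, 7 with the luminal score subtracted (6 of them the same, with Trf lost and Ltf higher), and the same 7 under the other scalings, pseudocount and fits. With the luminal score subtracted 17570 of 19325 genes passed, so that count does not set the 8 apart. The median of all genes was then 1.50, and Ltf was at 1.68. The 2 calls with age in the CYP19A1 line numbered 0 without the filter, after median-ratio scaling, after rescaling, with only the compared groups and with the luminal covariate, 1 with the luminal score subtracted, 4 with the muscle covariate, and 0 to 3 with 1 library left out. The 1 call between the lines at 20 months untreated became 0 without the filter, 2 with the luminal covariate (Folr1 lower and Ltf higher) and 2 with the replicate block (Trf and Folr1), and 0 to 1 with 1 library left out. The 1 call averaged over conditions became 0 without the filter and with the luminal score subtracted, 2 with the luminal covariate (Glycam1 lower and Ltf higher), and 0 to 1 with 1 library left out. It was lost without any of 17 libraries, which include at least 1 of each of the 8 groups. Tamoxifen in the Esr1 line gave 1 call with the muscle covariate (Folr1) and 0 to 3 with 1 library left out. The other 11 comparisons gave 0 calls among the 8 throughout. The cause of these changes was not tested. Of the 48 relations 27 passed, and 18 to 30 under the alternatives; Trf with the muscle score had r = -0.46 over libraries and 0.24 as deviations. Same-numbered samples had a median correlation of deviations of -0.0027 over 84 pairs, 19 of them above 0.1, and 11 of 24 samples correlated best with their own number, so the numbers were not taken to pair the samples; the block changed no other count by over 1.5 times. With 3 mice a group and no depth in the table, differences within the spread of a group could not be resolved.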
